A study of Rattus norvegicus with 16 samples.

Results

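The muscle acetylcholine receptor is the ligand-gated cation channel that turns acetylcholine released by the motor nerve into depolarisation of the muscle fibre. Its genes were followed here in rat extraocular muscle, the muscles that move the eye, and in another rat skeletal muscle labelled TA. The members were chosen by gene symbol alone: every probe set annotated to a single gene among Chrna1 (alpha subunit), Chrnb1 (beta), Chrnd (delta), Chrne (epsilon) and Chrng (gamma). These were 5 probe sets for 5 genes, out of 8799 probe sets and 4737 genes with a symbol of their own on the array. The arrays were 4 of extraocular muscle (EOM, with no collection time in the labels) and 8 of TA muscle collected at 6 hours (TA_6h), beside 4 of TA muscle collected at 1 hour (TA_1h). What the hours count from is not stated in the labels, and strain, age and treatment are not given in the sources used here. TA arrays that carry the same number within a group were averaged into 1 sample, which left 4 numbered EOM samples, 4 TA_6h samples and 2 TA_1h samples. The labels tie no number to an animal, so the p-values reflect scatter among these numbered samples, possibly of technical origin.

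In an innervated adult fibre the receptor is a ring of alpha, beta, delta and epsilon subunits crowded under the nerve terminal. In fetal and denervated muscle the gamma subunit takes the place of epsilon and gives a channel that opens for longer at lower conductance. Extraocular muscle is known for fibres with many small nerve endings along their length, and such fibres are known to keep the gamma subunit in adult life. The subunit genes are switched on by myogenic factors of the basic helix-loop-helix family, which bind the E-box (CANNTG). Nuclei under the endplate raise their transcription further through Ets-family factors at the N-box (CCGGAA), described in the mouse for the delta and epsilon genes.

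The labels were set against tissue markers first. All 4 extraocular fibre genes measured (Myh13, Myh8, Myh3 and Myl4) were higher in EOM than in either TA group. Myh13, the extraocular myosin heavy chain, gave intensities of 7213 to 8013 in EOM, against 41.9 to 415 in TA_6h and 142 to 436 in TA_1h. Of 9 skeletal fibre markers on the array, 5 were called lower in EOM than in TA_6h, 1 higher and 3 not. Over all probe sets tested, 21.9% were called higher and 25.3% lower. The higher marker was Ckm, the muscle creatine kinase, which read 7404 to 12333 in EOM. Its intensities were 0.0219 to 5979 in TA_6h and 0.0313 to 29046 in TA_1h, so it was near 0 on some TA arrays. Against TA_1h 5 markers were again called lower, 1 higher and 3 not, beside 17.7% higher and 19.5% lower over all probe sets tested. There the higher marker was Acta1 (log2 3.80 ± 0.90, limma adjusted p = 0.00837), and Ckm was not called. Acta1 also fell low on TA arrays, to 94.9 in TA_6h and 7.17 in TA_1h. The EOM columns hold 8549 negative intensities, 24.3% of their values, while the lowest TA intensity is 0.0219. Muscle and the authors' summary step therefore cannot be told apart in a comparison of EOM with TA. On 5 TA arrays (TA_6h 3a, 3b, 4a and 4b, and TA_1h 2b) the beta-actin control was weak in its middle part relative to its 3′ part: the ratio of these was 0.146 to 0.390 there. The remaining 7 TA arrays had ratios of 0.815 to 1.28, and the EOM arrays 0.891 to 0.978. On 4 further TA arrays (TA_6h 1b and 2b, TA_1h 1a and 2a) the middle Gapdh control read 856 to 2184, against 6698 to 51038 elsewhere. A floor was set at an intensity of 56.5, the 25th percentile of all values, and every subunit lay above it on all 16 arrays.

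The 250 bases before the RefSeq start of each subunit gene are printed below in build GRCr8, 5′ to 3′ on the gene's own strand. They are shown because the 5 subunits are transcribed from separate promoters. Whether their motifs bear on the differences between the muscles was not tested. Capitals mark every E-box (CANNTG, which reads the same pattern on both strands) and every N-box (CCGGAA, or TTCCGG where it lies on the opposite strand). No E-box overlapped an N-box.
Chrna1, chr3:78877354-78877603, minus strand: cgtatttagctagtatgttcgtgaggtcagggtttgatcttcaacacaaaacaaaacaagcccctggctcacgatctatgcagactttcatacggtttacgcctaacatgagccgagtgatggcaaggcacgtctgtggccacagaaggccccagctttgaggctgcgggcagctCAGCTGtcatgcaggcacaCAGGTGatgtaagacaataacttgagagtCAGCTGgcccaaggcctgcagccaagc
Chrnb1, chr10:55015108-55015357, minus strand: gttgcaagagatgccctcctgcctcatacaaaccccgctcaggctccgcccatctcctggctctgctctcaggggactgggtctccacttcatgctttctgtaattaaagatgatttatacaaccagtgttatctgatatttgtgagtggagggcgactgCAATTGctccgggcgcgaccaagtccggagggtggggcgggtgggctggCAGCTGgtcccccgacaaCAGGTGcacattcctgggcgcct
Chrnd, chr9:95310066-95310315, plus strand: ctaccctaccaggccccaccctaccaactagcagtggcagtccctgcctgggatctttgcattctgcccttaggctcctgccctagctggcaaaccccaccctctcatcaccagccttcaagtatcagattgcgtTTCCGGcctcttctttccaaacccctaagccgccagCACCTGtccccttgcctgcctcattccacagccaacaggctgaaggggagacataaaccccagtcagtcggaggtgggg
Chrne, chr10:55834155-55834404, minus strand: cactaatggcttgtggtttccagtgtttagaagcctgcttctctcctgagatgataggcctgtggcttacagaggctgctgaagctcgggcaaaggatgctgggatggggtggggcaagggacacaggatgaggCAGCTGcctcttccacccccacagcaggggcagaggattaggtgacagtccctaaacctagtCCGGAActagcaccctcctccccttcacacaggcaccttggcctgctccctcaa
Chrng, chr9:95325734-95325983, plus strand: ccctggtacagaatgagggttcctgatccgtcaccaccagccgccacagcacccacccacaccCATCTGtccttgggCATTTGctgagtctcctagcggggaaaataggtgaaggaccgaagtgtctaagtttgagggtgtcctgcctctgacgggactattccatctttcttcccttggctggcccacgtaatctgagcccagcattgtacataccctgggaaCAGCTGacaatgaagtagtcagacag

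Chrna1 held 3 E-boxes in this window, Chrnb1 3, Chrng 3, Chrnd 1 and Chrne 1. Of all 33465 promoter windows of this length, 65.55% held at least 1 E-box and 30.76% held 2 or more. The E-box of the form CAGCTG, looked at after the sequences had been seen, occurred in Chrna1 at 75 and again at 27 bases before the start. It stood once in Chrnb1, Chrne and Chrng, at 41, 116 and 26 bases before the start, and was not in the Chrnd window. CAGCTG stood in 11.97% of all windows, and 2 or more copies in 1.04%. The N-box occurred in the Chrnd window, 115 bases before the start, and in the Chrne window, 54 bases before it. It stood in 12.6% of all windows. These are matches of letters, and binding was not measured. Chrnd and Chrng, on chromosome 9, are neighbouring protein-coding genes, while Chrnb1 and Chrne lie apart on chromosome 10 and Chrna1 on chromosome 3.

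The first question was how the subunits differ between EOM and TA muscle collected at 6 hours. Chrna1, Chrnd, Chrne and Chrng were higher in EOM, by 1.60-fold for Chrng and by 4.11-fold for Chrna1. Chrnb1 did not pass the test in either direction. So 4 of 5 subunits were called higher, in a comparison that called 47.2% of the 7640 probe sets tested, 21.9% higher and 25.3% lower. Each of those 4 was above all 8 TA_6h arrays on every EOM array, as were 16.5% of the probe sets tested, while 17.3% lay below on every EOM array. The median difference of the 5 subunits was 1.34 on the log2 scale, beside -0.11 over all probe sets tested. Among the 4041 probe sets that, like the subunits, lay above the floor on all 16 arrays, 27.3% were called higher and 19.0% lower, with a median of 0.12. The test was limma on log2 intensities, with p-values adjusted over all 7640 probe sets and a threshold of 0.05.

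**Figure D1:**
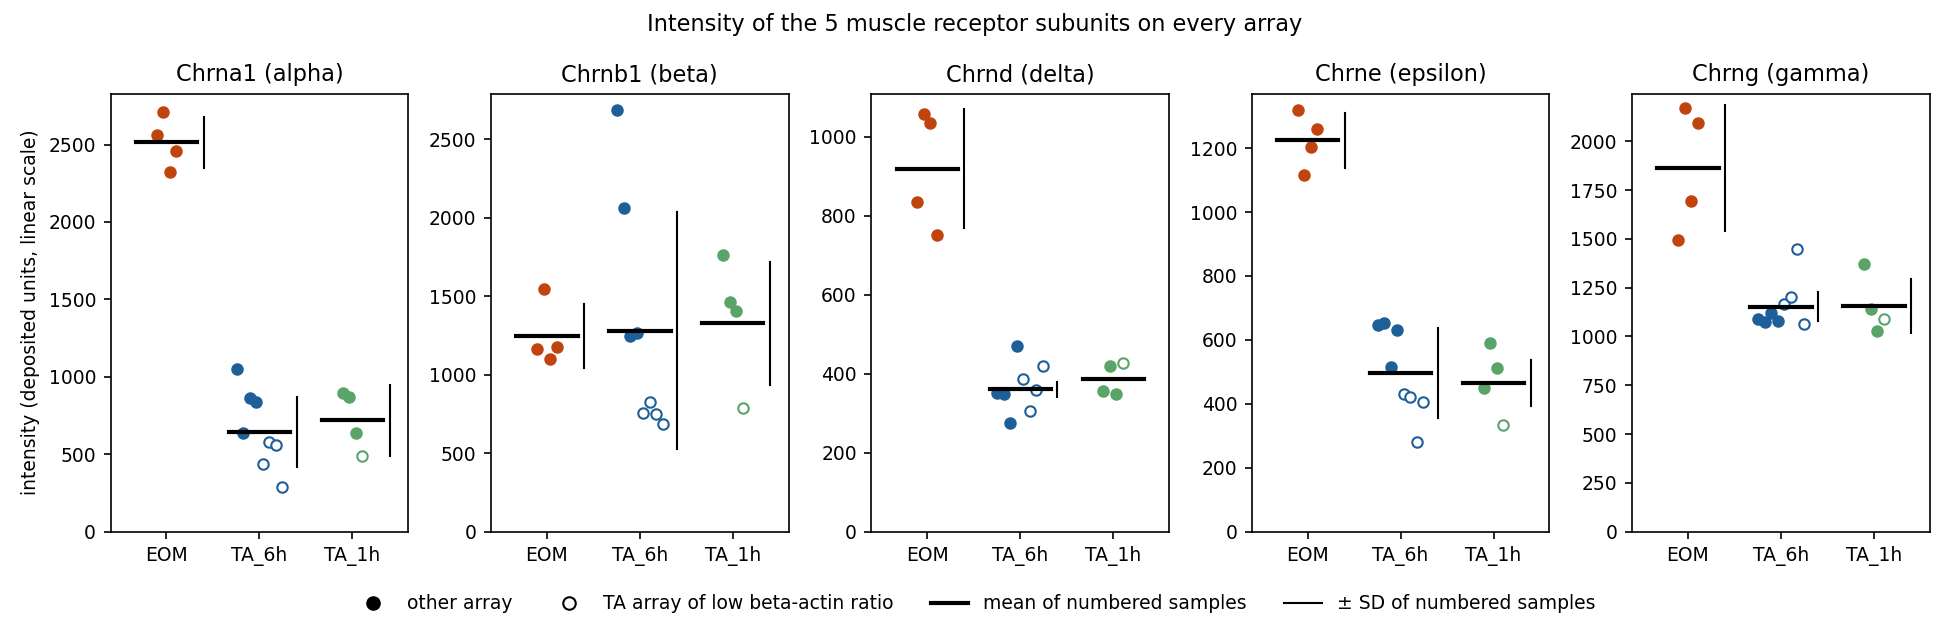
Intensity (deposited units, linear axis from 0) of each subunit's probe set on every EOM, TA_6h and TA_1h array; open points are the 5 low-ratio TA arrays, thick lines the means of numbered samples and thin bars their SD. Every EOM point lies above every TA point for Chrna1, Chrnd, Chrne and Chrng, and among the TA points for Chrnb1.

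Chrna1 encodes the alpha subunit, which carries most of the acetylcholine binding site. It gave intensities of 2563, 2709, 2323 and 2460 on EOM arrays 1 to 4. The 8 TA_6h arrays ran from 285 to 1048 with a median of 608, and the TA_1h arrays read 892, 871, 635 and 488. Every EOM array lay far above the highest TA array, and the TA groups overlapped each other. Numbered samples averaged 2514 ± 163 in EOM and 642 ± 225 in TA_6h (SD, n = 4 each), a log2 difference of 2.04 ± 0.27 (limma SE, adjusted p = 0.000199). Of all probe sets tested, 4.35% had a larger positive difference. The relative spread over numbered samples was 6.49% of the mean in EOM and 35.0% in TA_6h.

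Chrnb1 encodes the beta subunit, which binds no acetylcholine itself and links the receptor to the scaffold under the endplate. It gave 1162, 1546, 1100 and 1178 on the EOM arrays. The TA_6h arrays ran from 688 to 2683 with a median of 1036, and the TA_1h arrays read 1763, 1460, 1403 and 786. EOM lay inside the range of TA_6h, whose arrays 1 and 1b were the highest of all. The means were 1247 ± 202 in EOM and 1279 ± 754 in TA_6h (SD, n = 4 each). The log2 difference was 0.12 ± 0.36 (limma adjusted p = 0.80), with a 95% interval from -0.67 to 0.91. That interval still holds differences as large as those of Chrng.

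Chrnd encodes the delta subunit, which forms one of the receptor's acetylcholine sites together with alpha. It read 834, 1057, 1035 and 750 on the EOM arrays. TA_6h ran from 273.8 to 468.7 with a median of 355, and the TA_1h arrays read 355, 418, 348 and 428. All EOM arrays lay above all TA arrays, and the TA groups overlapped. The means were 919 ± 151 in EOM and 360 ± 19.3 in TA_6h (SD, n = 4 each), a log2 difference of 1.34 ± 0.16 (limma adjusted p = 0.000104) or 2.53-fold. Here the spread over numbered samples was wider in EOM, at 16.4% of the mean, than in TA_6h, at 5.35%. The spreads are not on the same footing, because a TA_6h sample averages arrays and an EOM sample is a single array. The lowest and highest TA_6h arrays, 273.8 and 468.7, both belong to TA_6h sample 2 and were averaged there.

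Chrne encodes epsilon, the subunit of the adult endplate. Its intensities were 1319, 1116, 1202 and 1259 on the EOM arrays. In TA_6h they ran from 280 to 654 with a median of 473, and the TA_1h arrays read 450, 590, 510 and 334. Again no TA array reached the lowest EOM array. The means were 1224 ± 86.4 in EOM and 496 ± 141 in TA_6h (SD, n = 4 each), a log2 difference of 1.35 ± 0.22 (limma adjusted p = 0.000719) or 2.54-fold. Of all probe sets tested, 11.2% had a larger positive difference than Chrne and 11.3% a larger one than Chrnd.

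Chrng encodes gamma, the subunit of fetal and denervated muscle. It read 1494, 2172, 1697 and 2094 on the EOM arrays. TA_6h ran from 1063 to 1449 with a median of 1106, and the TA_1h arrays read 1374, 1141, 1027 and 1088. The groups did not overlap, but the lowest EOM array, at 1494, was close to the highest TA array, TA_6h 4a, at 1449. The means were 1864 ± 323 in EOM and 1151 ± 74.4 in TA_6h (SD, n = 4 each), a log2 difference of 0.68 ± 0.17 (limma adjusted p = 0.00828). Of all probe sets tested, 24.6% had a larger positive difference. The names of the gamma and epsilon probe sets end in s_at, which on these arrays marks a probe set that can match more than one transcript, and probe sequences were not used here.

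The second question was whether TA muscle collected at 1 hour gave the same picture. The EOM samples are the same in both comparisons, so the values are set side by side and not counted as separate support. Against TA_1h, 4 of 5 subunits were called higher, in a comparison that called 37.2% of all probe sets tested, 17.7% higher and 19.5% lower. The same 4 lay above the 4 TA_1h arrays on every EOM array, as did 21.0% of the probe sets, while 21.7% lay below. The median over the 5 subunits was 1.24, beside -0.09 over all probe sets. Among the 4041 above the floor throughout, 21.9% were called higher and 14.1% lower, with a median of 0.09.

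Against TA_1h, Chrna1 was 3.58-fold higher in EOM, with sample means of 2514 ± 163 in EOM and 719 ± 230 in TA_1h (SD, n = 4 and 2) and a log2 difference of 1.84 ± 0.33 (limma adjusted p = 0.00179). Chrnd averaged 919 ± 151 in EOM and 386 ± 0.0611 in TA_1h (SD, n = 4 and 2), a log2 difference of 1.24 ± 0.20 (limma adjusted p = 0.000883). That small SD is of 2 averages that nearly coincide, while the 4 TA_1h arrays ran from 348 to 428. Chrne averaged 1224 ± 86.4 in EOM and 464 ± 72.3 in TA_1h, a log2 difference of 1.41 ± 0.27 (limma adjusted p = 0.00253). The alpha, delta and epsilon calls held in each of the 25 alternative analyses, against both TA groups. Chrng averaged 1864 ± 323 in EOM and 1154 ± 138 in TA_1h, a log2 difference of 0.68 ± 0.21 (limma adjusted p = 0.0268). That call was lost under quantile normalization (log2 0.45, adjusted p = 0.117) and when a single sample was left out: EOM sample 2 (0.60, adjusted p = 0.0566), EOM sample 4 (0.62, adjusted p = 0.0617), TA_1h sample 1 (0.80, adjusted p = 0.0616) or TA_1h sample 2 (0.56, adjusted p = 0.168). Chrnb1 averaged 1247 ± 202 in EOM and 1327 ± 392 in TA_1h, a log2 difference of -0.07 ± 0.43 (limma adjusted p = 0.92) with a 95% interval from -1.04 to 0.90.

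The third question was whether collection time changed the subunits within TA muscle. Between TA_6h and TA_1h 0 of 5 subunits were called by limma, and 0% of all 7640 probe sets, of which 424 had an unadjusted p under 0.05. The log2 differences, TA_6h minus TA_1h, were -0.20 ± 0.33 for Chrna1, -0.19 ± 0.43 for Chrnb1 and -0.10 ± 0.20 for Chrnd. For Chrne the difference was 0.06 ± 0.27 and for Chrng it was 0.00 ± 0.21. The arrays of the groups overlapped for all 5. With 2 TA_1h samples the 95% intervals were wide, from -1.16 to 0.78 for Chrnb1 and from -0.46 to 0.46 for Chrng. The data therefore placed EOM first for alpha, delta, epsilon and gamma, with no order between the TA groups beyond their spread. For gamma this was less firm, as its call against TA_1h was lost in 7 of the 25 alternatives. No order among the groups was seen for beta.

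**Figure D2:**
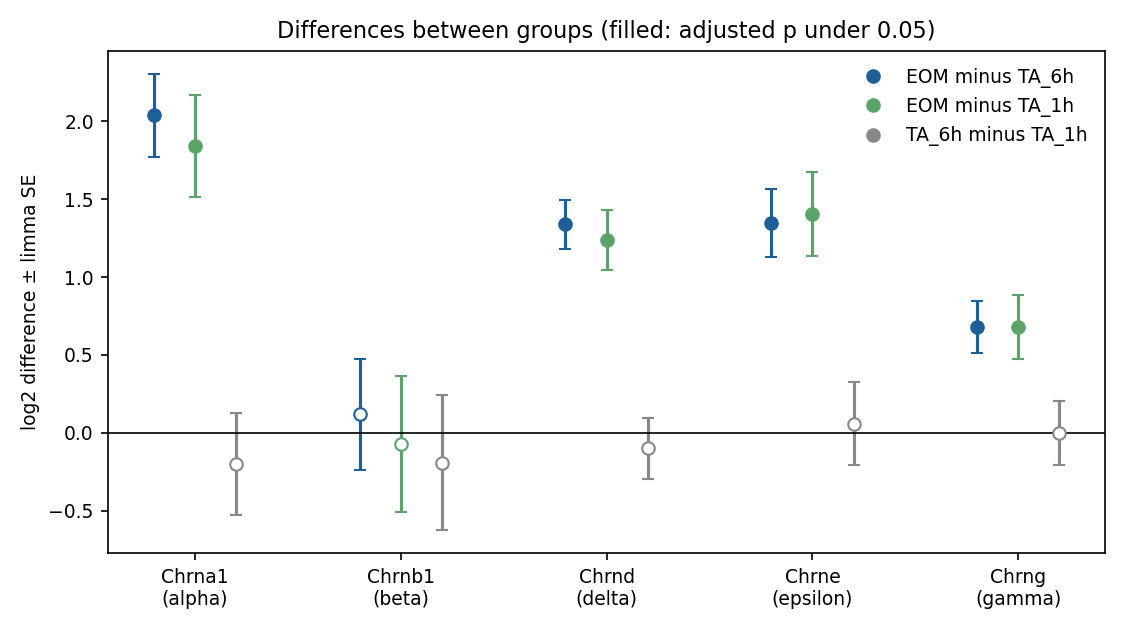
Log2 difference of each subunit (limma, bars are SE) for EOM minus TA_6h, EOM minus TA_1h and TA_6h minus TA_1h; filled points have an adjusted p under 0.05. Chrna1, Chrnd, Chrne and Chrng are filled in both EOM comparisons, which share the EOM samples, Chrnb1 is open in both, and all TA_6h minus TA_1h points are open around 0.

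The 5 low-ratio TA arrays separated the subunits from one another. On those 5 arrays Chrna1 read 285 to 578, and on the 7 remaining TA arrays it read 635 to 1048. Chrnb1 read 688 to 826 on the low-ratio arrays, against 1247 to 2683. Chrne read 280 to 431 there, against 450 to 654, so for alpha, beta and epsilon the array sets did not overlap. In log2, low-ratio minus other TA arrays, the differences were -0.84 for Chrna1, -1.11 for Chrnb1 and -0.62 for Chrne, beside a median of 0 over all probe sets tested. Such shifts were common on these arrays: 8.74% of all probe sets tested were lower on every low-ratio array and 4.52% higher, and 11.8%, 8.04% and 17.1% had a more negative difference than Chrna1, Chrnb1 and Chrne. Chrnd (0.06) and Chrng (0.08) did not follow them: Chrnd read 306 to 428 on the low-ratio arrays and 273.8 to 468.7 on the others, and Chrng 1063 to 1449 and 1027 to 1374. This description has no test, because the arrays were set apart by their control and 4 of the 5 belong to TA_6h samples 3 and 4.

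The EOM differences shifted accordingly with the choice of TA arrays. As means over arrays, EOM minus TA was 1.97 for Chrna1 with all 12 TA arrays, 1.62 with the low-ratio arrays left out and 2.46 with those arrays alone. Chrne gave 1.37, 1.11 and 1.73 in the same order. Chrnd stayed between 1.27 and 1.33, and Chrng between 0.64 and 0.71. For Chrnb1 the sign depended on the arrays: 0.06 with all 12, -0.41 without the low-ratio arrays and 0.70 with those alone. In the fit against TA_6h with only the low-ratio arrays as TA, an alternative added after the data were seen, Chrnb1 was called higher in EOM (log2 0.71, limma adjusted p = 0.0189). Without them it was not called (log2 -0.48, limma adjusted p = 0.186). For alpha, delta, epsilon and gamma the EOM arrays lay above both sets of TA arrays.

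**Figure D3:**
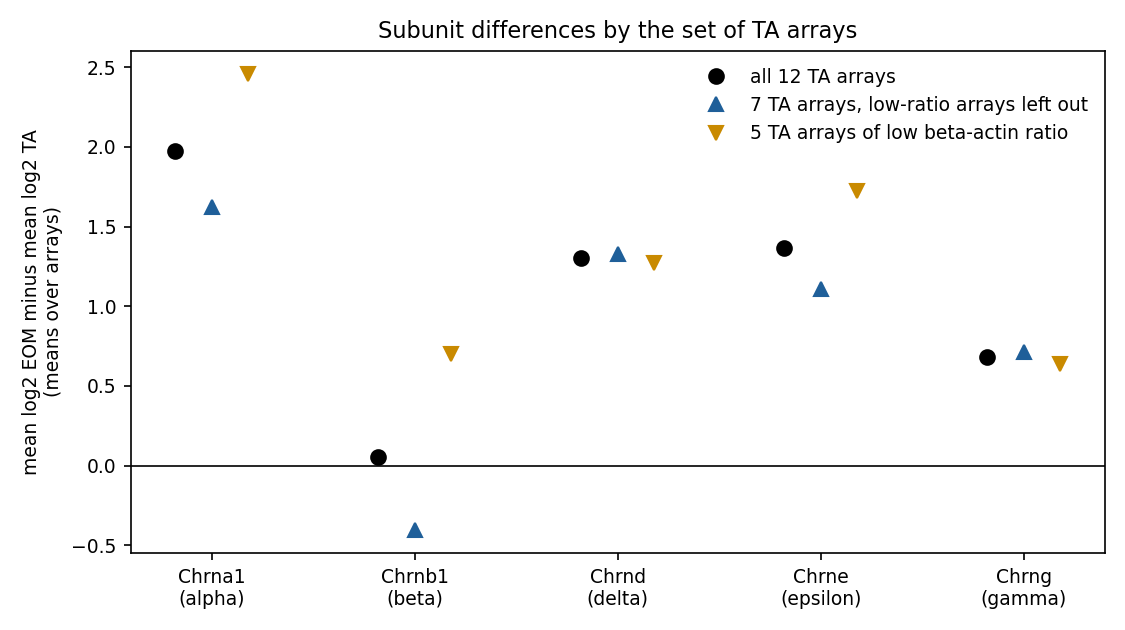
Mean log2 EOM minus mean log2 TA over arrays for each subunit, with all 12 TA arrays, with the 5 low-ratio arrays left out and with those 5 alone. Chrnd stays between 1.27 and 1.33 and Chrng between 0.64 and 0.71, while Chrna1, Chrne and Chrnb1 shift upward with the low-ratio arrays and Chrnb1 crosses 0.

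The fetal to adult balance was taken as log2 Chrng minus log2 Chrne within each sample. The probes differ between the genes, so the value has no absolute meaning and only its differences between groups were read. It was 0.18, 0.96, 0.50 and 0.73 in EOM samples 1 to 4. It was 0.74, 0.95, 1.47 and 1.88 in TA_6h samples 1 to 4, and 1.28 and 1.36 in the TA_1h samples. EOM was on average lower, toward epsilon, but EOM sample 2 lay above TA_6h samples 1 and 2. The means were 0.59 ± 0.33 in EOM and 1.26 ± 0.52 in TA_6h (SD, n = 4 each), a difference of -0.67 that did not pass a two-sided exact permutation test (p = 0.114, the smallest possible being 0.0286). EOM minus TA_1h was -0.73, with no overlap of the numbered samples, yet 4 against 2 samples cannot go below the exact permutation p of 0.133 that it gave. Before averaging, array TA_1h 1b, at 0.952, lay just below EOM array 2, at 0.961. TA_6h minus TA_1h was -0.06 (exact permutation p = 0.933).

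The balance, like epsilon, moved with the low-ratio arrays. It ran from 1.39 to 2.37 on the 5 low-ratio TA arrays and from 0.72 to 1.61 on the other TA arrays, beside 0.18 to 0.96 in EOM. Without the low-ratio arrays EOM minus TA_6h was -0.25 (exact permutation p = 0.533), and with those arrays alone as TA it was -1.08 (exact permutation p = 0.133). Each of these sets holds 2 TA_6h samples, so neither test could go below 0.133 and neither could pass. In the 19 alternatives run for the balance EOM minus TA_6h lay between -1.08 and -0.25. These alternatives reuse the same 2 probe sets and draw on the same samples, so they are not separate support. Here too muscle and the authors' summary step cannot be told apart, and what else the gamma and epsilon probe sets match was not checked.

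**Figure D4:**
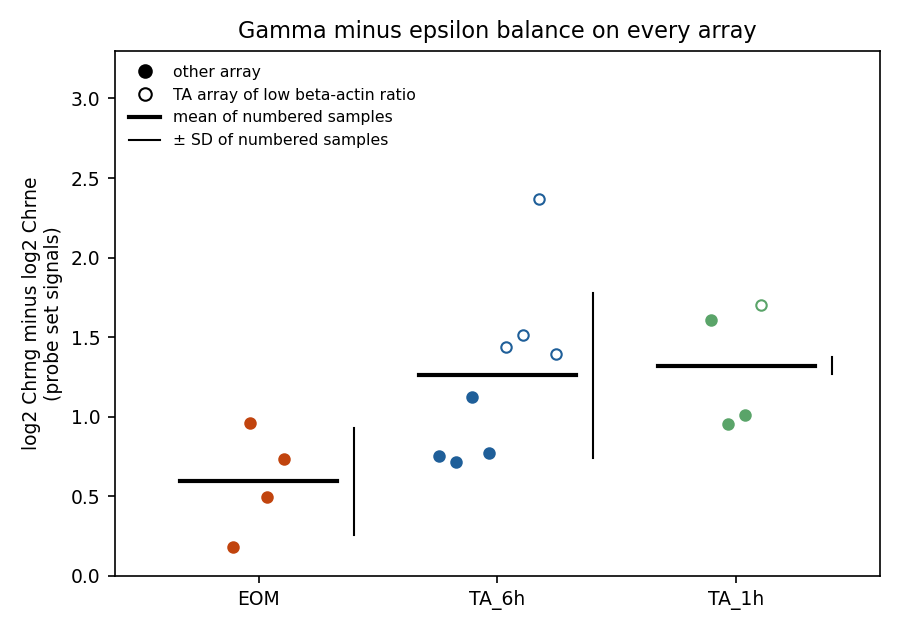
Log2 Chrng minus log2 Chrne on every array of EOM, TA_6h and TA_1h, with open points for the 5 low-ratio TA arrays, thick lines for means of numbered samples and thin bars for their SD. The EOM arrays lie from 0.18 to 0.96, the low-ratio TA arrays from 1.39 to 2.37 and the other TA arrays from 0.72 to 1.61.

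The arrays of a TA sample differed by up to 1.97-fold in a subunit. Over the 6 pairs of TA arrays the brighter array was 1.02 to 1.36 times the dimmer for Chrng and 1.02 to 1.97 times for Chrna1. For Chrnb1, Chrnd and Chrne the largest ratios were 1.79, 1.71 and 1.53. After each group's mean was taken away, over the 10 numbered samples, Chrna1 moved with Chrne (Pearson r = 0.914) and with Chrnb1 (r = 0.854), and Chrnb1 with Chrne (r = 0.833). The remaining pairs, all with Chrnd or Chrng in them, lay between -0.348 and 0.131. These correlations describe 10 samples that share the array scaling and the beta-actin ratios.

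Other genes were ranked by likeness to each subunit over the same 10 samples, as Pearson r of log2 values and again of deviations from group means. For all subunits but Chrnb1 the EOM arrays stand apart from the TA arrays, so there the first measure mostly ranks genes by a shared EOM difference. By log2 values the closest were Cd9 to Chrna1 (r = 0.994), Acta2 to Chrnb1 (0.949), Cyfip2 to Chrnd (0.989), Cd48 to Chrne (0.992) and Ppp1r9b to Chrng (0.981). By deviations they were Ndufs1 to Chrna1 (0.993), Jun to Chrnb1 (0.979), Rph3al to Chrnd (0.959), Snrk to Chrne (0.997) and Ift46 to Chrng (0.953). St13 was among the 3 closest to Chrnb1 by both measures (0.937 and 0.969), and Ppp1r9b among the 3 closest to Chrng by both (0.981 and 0.943).

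The neuronal nicotinic subunits assemble the receptors of ganglia and brain. Of the 10 on the array, against TA_6h, 1 was called higher in EOM, 1 lower and 8 not. Over all probe sets tested, 21.9% were called higher and 25.3% lower. Chrnb2, the beta subunit most widely used in neuronal receptors, was the higher one: 234 to 734 in EOM, against 33.4 to 103 in TA_6h and 71.0 to 98.9 in TA_1h (EOM minus TA_6h, log2 2.68 ± 0.34, limma adjusted p = 0.000171). Chrna7, which forms receptors of alpha7 alone, was the lower one through its brightest probe set, at 174 to 253 in EOM, against 275 to 573 in TA_6h (log2 -1.08 ± 0.21, limma adjusted p = 0.0023). Its other probe sets gave -0.93, called lower, and 0.19, not called. The brightest probe set of Chrnb4, the ganglionic beta subunit, gave 0.08, not called, and its other gave -2.32, called lower. The median over these 10 subunits was 0.01 against TA_6h, beside -0.11 over all probe sets tested.

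Of 27 listed endplate partners 14 were on the array and 12 could be tested. Against TA_6h 1 was called higher in EOM, 4 lower and 7 not, beside 21.9% higher and 25.3% lower over all probe sets tested. The median was -0.33, beside -0.11 over all probe sets tested. Ptn, a heparin-binding growth factor, was the higher one, with 930 to 1405 in EOM, against 171 to 366 in TA_6h (log2 2.09 ± 0.24, limma adjusted p = 8.58e-05). The lower ones were Utrn, Ncam1, Scn4a and Erbb3, a co-receptor for neuregulin (log2 -0.73 ± 0.17, limma adjusted p = 0.00582). The other probe set of Erbb3 went the opposite way, at log2 0.68 against TA_6h, not called, and 1.45 against TA_1h, called higher (limma adjusted p = 0.0272). Utrn encodes utrophin, the synaptic relative of dystrophin: its brightest probe set lay below the floor on all EOM arrays (log2 -3.86, a bound set by the floor), whereas its other probe set was called higher (log2 1.05). Ncam1, a neural adhesion molecule, was below the floor on all EOM arrays as well (log2 -2.04, also a bound). Scn4a, the muscle sodium channel, was called lower on 1 of its 3 probe sets, the brightest (log2 -1.68 ± 0.42, limma adjusted p = 0.00811). Agrn, the nerve-derived organiser of receptor clusters, Ache, the esterase that removes acetylcholine, and Colq, its collagen tail, were not called through their brightest probe sets (log2 0.09, -0.42 and -0.09). Another probe set of Agrn (log2 -0.80, limma adjusted p = 0.0436) and another of Ache (log2 -1.16, limma adjusted p = 0.0128) were called lower. Musk, the receptor kinase that agrin activates, was above the floor on 3 arrays, all of EOM, and was not tested. It read 4.67 to 140 in EOM, against 18.3 to 51.1 in TA_6h and 23.5 to 55.4 in TA_1h.

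Regulators of the receptor genes moved both ways. Of 19 listed, 12 were on the array and tested. Against TA_6h 4 were called higher in EOM, 5 lower and 3 not, beside 21.9% higher and 25.3% lower over all probe sets tested. Myog, a myogenic factor that binds the E-box, was below the floor on all EOM arrays and read 338 to 1831 in TA_6h (log2 -3.80, a bound set by the floor). Myod1, another such factor, read 311 to 534 in EOM, against 714 to 2038 in TA_6h (log2 -1.31 ± 0.25, limma adjusted p = 0.00178). Id2, which sequesters their partners, read 893 to 1071 in EOM, against 160 to 418 in TA_6h (log2 1.97 ± 0.25, limma adjusted p = 0.000168). Those partners went both ways. Tcf4 gave log2 1.47 ± 0.17 (limma adjusted p = 7.2e-05) and Tcf12 1.43 ± 0.36 (limma adjusted p = 0.00924), both called higher. Tcf3 was called lower (log2 -0.86 ± 0.15, limma adjusted p = 0.00115). The other probe sets of Tcf12 and Tcf3 were not called (log2 -0.31 and -0.07). Myf6, the factor most abundant in adult fibres, was not called (log2 -0.10 ± 0.29). Against TA_1h 5 of the 12 were called higher, 4 lower and 3 not, beside 17.7% higher and 19.5% lower over all probe sets tested. Between TA_6h and TA_1h 0 of the neuronal subunits, endplate partners and regulators were called by limma.

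**Figure D5:**
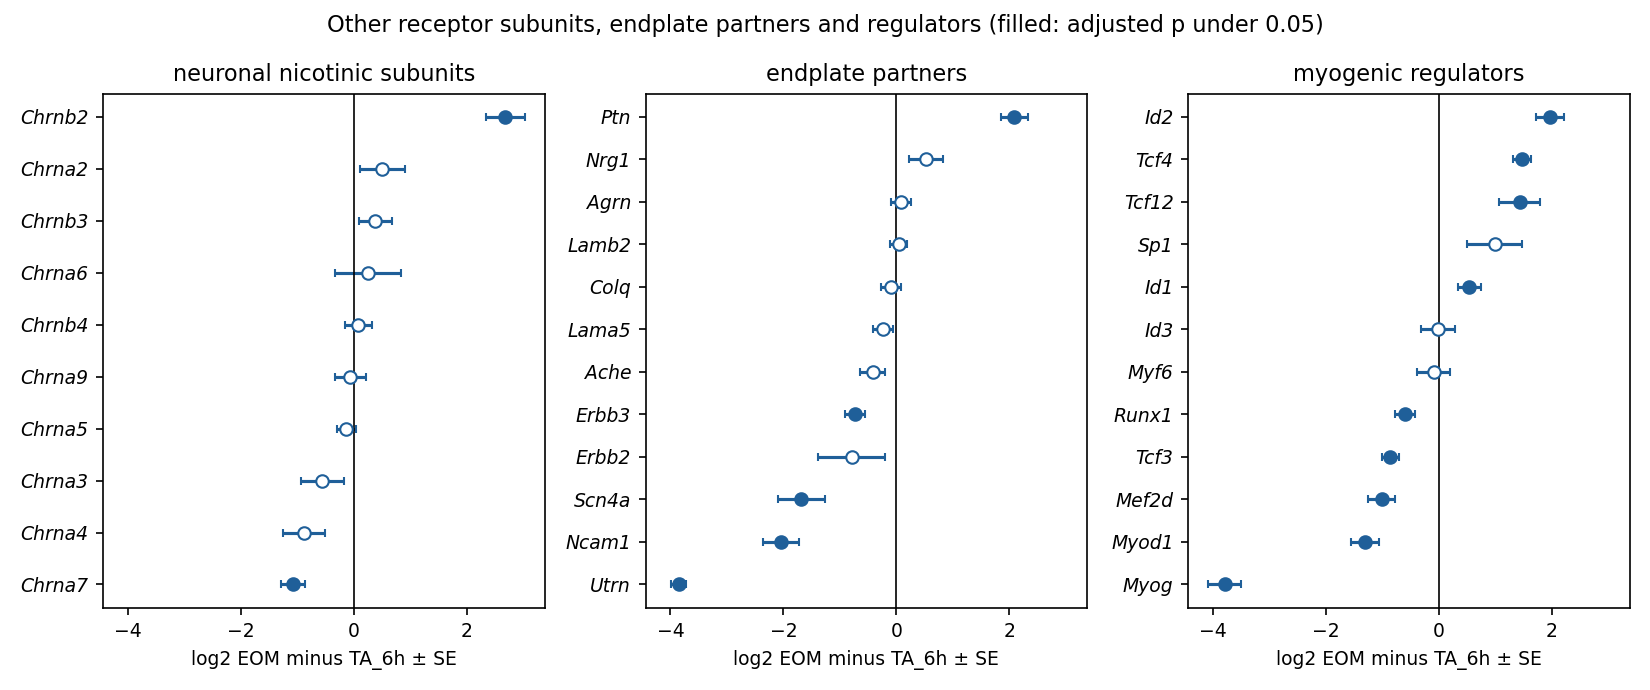
Log2 EOM minus TA_6h with limma SE for the brightest probe set of each tested neuronal nicotinic subunit, endplate partner and myogenic regulator; filled points have an adjusted p under 0.05. The panels hold points on both sides of 0: 1 higher and 1 lower neuronal subunit, 1 higher and 4 lower endplate partners, and 4 higher and 5 lower regulators. Over all probe sets tested, 21.9% were called higher and 25.3% lower.

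Of 12 nerve and Schwann cell markers on the array 10 could be tested against TA_6h. Of these, 6 were called higher in EOM, 2 lower and 2 not, beside 21.9% higher and 25.3% lower over all probe sets tested. The higher ones were S100b, Mbp, Pmp22 and Mag of Schwann cells and myelin, and the nerve genes Snap25 and Gap43. These counts rest on the brightest probe set of each gene. That of Snap25, a protein of vesicle release, read 961 to 1374 in EOM, against 72.5 to 385 in TA_6h (log2 2.56 ± 0.31, limma adjusted p = 0.000124). Snap25 has 4 probe sets, and another of them went the opposite way. It was called lower in EOM than in TA_6h (log2 -0.99, limma adjusted p = 0.0270) and than in TA_1h (log2 -1.34, limma adjusted p = 0.0215). Gap43, a growth cone protein, gave log2 0.92 ± 0.33 (limma adjusted p = 0.0425). The neurofilament Nefh (log2 -1.14 ± 0.35, limma adjusted p = 0.0216) and Chat, the enzyme that makes acetylcholine, were called lower. Chat read -337 to -122 in EOM, below the floor on all EOM arrays, and was above it on the 12 TA arrays only. Its difference (log2 -1.34) is thus a bound set by the floor. Nefl and Prph were not called, and Nefm and Syt1, below the floor on all EOM arrays, were not tested. In all sums given here, intensities under the floor, negative ones included, were set to the floor of 56.5. The summed intensity of the 12 was 10879 to 14773 in EOM, against 2967 to 4021 in TA_6h and 3288 to 3735 in TA_1h. Pmp22 alone gave 5833 to 9656 in EOM, against 506 to 1378 in TA_6h, and so held much of that sum. Of 9 muscle fibre markers 1 was called higher in EOM, 5 lower and 3 not, and their sum was 117814 to 138513 in EOM, against 124489 to 297976 in TA_6h. Of the genes listed for satellite cells and myoblasts, only Des and Ncam1 were on the array, and both were called lower in EOM than in TA_6h. Their sum was 8510 to 9433 in EOM, against 8394 to 27482 in TA_6h. Nearly all of it was Des, at 8454 to 9377 in EOM and 8262 to 26837 in TA_6h. Ncam1, also listed as an endplate partner, was below the floor on all EOM arrays. These genes do not measure satellite cells apart from muscle fibres. The part of nerve content, fibre content and satellite cells in the subunit differences was not tested. In RNA of whole muscle, more endplates per muscle and more subunit RNA per endplate cannot be told apart.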

How the data were processed

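Expression was measured on 16 short oligonucleotide arrays. The deposited files hold linear intensities by probe set, with the authors' way of summarising probes not given in the sources used here. Read from the values, the mean without the top and bottom 2% was 799.96 to 800.00 on all arrays, and no further scaling was applied. Intensities under 56.5 were set to that floor before log2. Tests covered 7640 probe sets, which exclude controls and those above the floor on fewer than 4 arrays. Gene names come from GEO's platform annotation (7018 probe sets with 1 symbol, 308 with several, 1473 unlisted), and the brightest probe set stood for a listed gene.

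TA arrays sharing a number were averaged, where joining the unlettered TA_6h arrays 1 and 2 to 1b and 2b is an inference. The groups were fitted together with limma 3.58.1 (lmFit and eBayes, R 4.3.3; residual df 7, prior df 2.83), with Benjamini-Hochberg adjustment over all 7640. The balance was tested by exact permutation over numbered samples. The fit was tested on simulated data. Promoters are RefSeq's, in GRCr8, and all 5 members matched. Plots used matplotlib 3.10.9 (Python 3.11.15). The members, lists and alternatives were chosen with earlier results of these data known. Named genes were all members, the called genes of the neuronal list, up to 4 called genes of each other list and the closest genes by likeness, and further genes were named after their values were seen. The number of arrays limits the precision.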

Additional observations from a re-analysis of the deposited data

How the results depend on the processing

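Across 25 alternatives (19 for the balance), the receptor subunits called numbered 4 to 5 of EOM against TA_6h, 3 to 4 of EOM against TA_1h and 0 of TA_6h against TA_1h. Chrna1, Chrnd and Chrne kept direction and call in all 25 against both TA groups, and so did Chrng against TA_6h (log2 0.45 to 0.79, limma adjusted p up to 0.0478), while Chrng against TA_1h lost its call in 7. Chrnb1 turned below 0 against TA_6h under quantile normalization (-0.11), without the 5 low-ratio arrays (-0.48) and with that ratio as a batch term (-0.44), and lay between -0.10 and 0.47 as each sample was left out. Against TA_1h it turned above 0 under median scaling (0.029), without the 4 TA arrays of low Gapdh (0.21) and with the low-ratio arrays alone (0.65), and lay between -0.38 and 0.23 as each sample was left out. TA_6h minus TA_1h differences near 0, never called, also changed sign: without the low-ratio arrays Chrna1 gave 0.15 and Chrnb1 0.20. With the batch term they gave 0.0047 and 0.087. Without the low-Gapdh arrays Chrnb1 gave 0.13 and Chrng 0.055, and with the low-ratio arrays alone Chrng gave 0.16. As each sample was left out, these differences lay between -0.53 and 0.13 for Chrna1, -0.54 and 0.11 for Chrnb1, -0.10 and 0.23 for Chrne and -0.12 and 0.12 for Chrng, and the balance between -0.27 and 0.12. Where a single TA_1h sample remained, it was assumed to vary like the other groups. The cause was not tested.

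With the replicate number as a replicate block, Chrng against TA_1h was not called (0.63, limma adjusted p = 0.101), Chrnb1 against TA_1h was 0.28, and TA_6h minus TA_1h was 0.061 for Chrna1 and 0.17 for Chrnb1. No other call of a subunit changed. The numbers do not pair the samples: same-numbered deviations correlated by 0.0206 to 0.105 between EOM and TA_6h, and by -0.0437 to 0.0365 and -0.418 to 0.389 in the other comparisons. Counts over all probe sets moved with the probe sets admitted: 1927 calls against TA_6h and 1512 against TA_1h where probe sets had to exceed the floor on each of the 16 arrays, which left fewer to test. Leaving out each sample gave 1840 to 3039 calls against TA_1h, the lowest without TA_1h sample 1. For TA_6h against TA_1h the calls numbered 8 with no filter, 34 without the low-ratio arrays, 6 without the low-Gapdh arrays, 17 with the batch term and 418 with the low-ratio arrays alone. They numbered 1 where probe sets had to exceed the floor throughout, 1 with each array as a sample, 1 without the unlettered arrays, and 0 to 1 as each sample was left out.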
